A study of Mus musculus with 24 samples.

Results

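The p53 pathway genes described here are 35 mouse genes that code for p53 itself (Trp53), its regulators, and well-known targets of p53 in cell cycle arrest, cell death, DNA repair and metabolism. They were chosen by symbol, and the fit across all genes used those with at least 0.5 CPM (counts scaled to the library total) in at least 3 samples. All 35 were rows of the count table, which lists 39253 genes and 28 of the 35 passed this filter, among 13901 genes tested in all. The question was whether transfection of effector plasmids, the choice of effector, its crRNA or an antisense oligonucleotide (ASO) moved the transcripts by which damage signalling to p53 is usually read.

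RNA-seq was performed on Neuro2A cells, a mouse neuroblastoma line with the genotype given as wild-type, in 8 groups of 3 samples that are stated to be independent biological replicates. In 6 groups, cells were transiently transfected with plasmids for 1 of 3 RNA-targeting CRISPR effectors, RfxCas13d, its high-fidelity variant HiFi-RfxCas13d or DiCas7-11, each with a crRNA against mouse ataxin-2 mRNA (mATXN2) or a non-targeted crRNA (NTG), and all cells were collected at 48 hr. The other 2 groups were untransfected cells and cells given an ataxin-2-targeting ASO as a positive control, for which no control ASO was analysed here. The effectors were driven by the CAG promoter, not every cell takes up a plasmid, and the untransfected cells had received no plasmid at all, so delivery, plasmid DNA and effector protein cannot be told apart in the contrasts with untransfected cells. The column names of the count table call the arms EV and G12 where the sample labels have NTG and G10, and it was not settled whether controls carried NTG crRNA or an empty vector; the labels' name NTG is used.

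p53 is a transcription factor that is held low in unstressed cells by Mdm2, a ubiquitin ligase that is itself a p53 target, and by the related Mdm4. DNA damage activates kinases such as Atm and Atr, which stabilize the p53 protein, and p53 then raises transcripts such as Cdkn1a (p21, an inhibitor of cyclin-dependent kinases), Mdm2, Bbc3 (Puma) and Ccng1. The protein and its modification are not seen in RNA, so the targets are the readout here.

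The promoters of Cdkn1a, Mdm2, Aen and Btg2 are shown because these are the members whose transcripts the results turn on, and because they differ in whether the p53 consensus is found near the start. RefSeq (GRCm38.p6, another build than the GRCm39 named by the submitters) gave promoter windows of 300 bases, 250 before to 50 after the start, for 26 of the 35 genes and 35 starts, and each is printed on the strand of its gene. The genes without a window were Tnfrsf10b, Perp, Ddb2, Ptp4a3, Rrm2b, Xpc, Trp53inp1, Pmaip1 and Zmat3. Capitals mark matches to the 10-base p53 decamer consensus, which reads alike on both strands, or to a full site of 2 decamers end to end with at most 2 mismatches. Cdkn1a is shown at its upstream start (chr17:29090729-29091028, plus strand), Mdm2 at chr10:117710709-117711008 (minus strand), Aen at chr7:78895808-78896107 (plus strand) and Btg2 at chr1:134079106-134079405 (minus strand).
Cdkn1a: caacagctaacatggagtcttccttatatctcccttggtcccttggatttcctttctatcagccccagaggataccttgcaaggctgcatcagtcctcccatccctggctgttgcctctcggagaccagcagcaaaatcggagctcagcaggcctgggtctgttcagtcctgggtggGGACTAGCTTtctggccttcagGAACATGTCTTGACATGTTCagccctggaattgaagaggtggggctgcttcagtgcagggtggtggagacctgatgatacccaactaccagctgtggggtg
Mdm2: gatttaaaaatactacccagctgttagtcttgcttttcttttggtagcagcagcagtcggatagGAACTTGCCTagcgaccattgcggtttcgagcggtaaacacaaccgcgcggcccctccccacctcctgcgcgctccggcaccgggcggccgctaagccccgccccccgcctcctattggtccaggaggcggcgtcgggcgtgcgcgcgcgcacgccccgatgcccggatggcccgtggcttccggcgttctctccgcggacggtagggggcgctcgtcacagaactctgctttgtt
Aen: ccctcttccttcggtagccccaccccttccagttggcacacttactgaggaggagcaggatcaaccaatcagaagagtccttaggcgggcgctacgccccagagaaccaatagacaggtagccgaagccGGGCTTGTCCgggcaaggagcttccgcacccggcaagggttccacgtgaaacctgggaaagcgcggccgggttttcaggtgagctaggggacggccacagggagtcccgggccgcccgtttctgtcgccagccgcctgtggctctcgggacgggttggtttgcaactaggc
Btg2: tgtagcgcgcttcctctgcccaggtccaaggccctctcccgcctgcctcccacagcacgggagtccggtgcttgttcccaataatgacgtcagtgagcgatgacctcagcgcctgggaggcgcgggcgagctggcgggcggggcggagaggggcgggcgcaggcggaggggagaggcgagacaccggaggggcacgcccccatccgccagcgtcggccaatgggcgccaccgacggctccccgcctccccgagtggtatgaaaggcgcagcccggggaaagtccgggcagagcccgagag
The Cdkn1a window held a decamer 73 bases before the start and a full site, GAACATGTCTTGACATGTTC, 51 bases before it, while the window at its other start had no match. Mdm2 held 1 decamer, GAACTTGCCT, 186 bases before the start, and Aen held 1, GGGCTTGTCC, 121 bases before the start shown, whereas the Btg2 window held none. Aen has another annotated start, with a window at chr7:78895677-78895976, and there the same decamer lay after the start, at position 11. Among the 35 windows of members, 12 (34.3%) held a decamer, compared with 8.36% of all 32851 windows. These 12 windows belong to 11 genes, since the Aen decamer lies in both of its windows. A full site was present in windows of 2 members, Cdkn1a and Ccng1, compared with 0.326% of all windows. Many members are on the list because p53 binds near them, a match is only a match of letters, and the counts do not say which start these cells use.

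Total counts were between 12665725 and 22504999 per sample (median 16478419), and the 3 ASO libraries were the deepest, so a count of 0 allowed up to 0.133 to 0.237 CPM by counting error alone. The replicates of DiCas7-11 NTG stood apart, with differences per gene of 3.33 to 5.59 times counting noise compared with 1.68 to 2.55 times in the other 7 groups. Comparisons of the members that include them are also given without them where groups remain to compare. Atxn2, the target, was read as a check of the labels, and was not called in every effector. It was at 51.9 CPM with the ASO and 123 CPM without transfection, and mATXN2 against NTG gave means of 114 and 122 CPM for RfxCas13d (edgeR adjusted p = 0.178, not called), 101 and 119 CPM for HiFi-RfxCas13d (0.00157) and 103 and 118 CPM for DiCas7-11 (0.00557). The neuroblast markers Hand2 and Chga averaged 385 and 185 CPM, whereas Th and Dbh averaged 0.916 and 2.7 CPM, and Epcam, Adgre1 and Aqp4 were at 0 in every sample.

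In untransfected cells, levels were compared between genes per kilobase of the longest annotated transcript of each gene. These cells may use shorter ones, so the order of genes depends on that choice, and the SDs hold no error of the length. Mdm2 was the highest at 39.5 ± 1.9 CPM per kb (SD, n = 3), followed by Bax (33.8 ± 1.9), Trp53 (27.2 ± 0.13) and Cdkn1a (21.6 ± 0.37), and Mdm2 and Trp53 did not overlap. Cell death genes differed widely, from Bax, which permeabilizes mitochondria, at the top, through Aen, a p53-induced nuclease (10.2 ± 0.45), to the BH3-only gene Bbc3 (1.8 ± 0.4). Ddb2, a sensor of ultraviolet damage, was at 1.14 ± 0.065, Dcxr at 0.985 ± 0.17 and the phosphatase gene Ptp4a3 at 0.624 ± 0.12 CPM per kb. At the other end, 7 members did not pass the filter: Pmaip1 (Noxa) was listed at 0 in all 24 samples, and the death receptor genes Fas and Tnfrsf10b reached at most 0.38 and 0.236 CPM, Epha2 0.323, Perp 0.162, Plk2 0.138 and Eda2r 0.106 CPM. Thus several usual readouts of p53, among them Pmaip1, Fas and Plk2, could not be read at this depth in these cells.

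Transfection was read by the mean of the 6 transfected groups against untransfected cells. This mean takes in the mATXN2 groups as well as the NTG groups, so targeting of Atxn2 is part of it. Between these groups and untransfected cells, p53 pathway transcripts differed in both directions and by small amounts. Aen, Mdm2, Tigar and Trp53 were higher, whereas Btg2, Cdkn1a, Sesn1 and Trp53inp1 were lower. In all, 8 of the 28 members tested (28.6%) had an adjusted p under 0.05 in edgeR's quasi-likelihood test with Benjamini-Hochberg adjustment, 4 higher and 4 lower, compared with 27.4% of all genes tested, a share near that background. The median log2 fold change was -0.05 over the members and -0.01 over all genes. The transfected libraries did not overlap the untransfected ones in 4 of the 28 members, beside 9.27% of all genes. In bulk samples, fewer cells of a type and less RNA per cell cannot be told apart.

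Trp53 was at 89.4, 88.7 and 88.7 CPM (TMM-normalised, as all CPM per sample here) in untransfected cells, and ranged from 92.8 to 102 CPM (median 96.7) over the 18 transfected libraries. Every transfected library was above every untransfected one, and the log2 fold change was 0.12 ± 0.03 (SE, edgeR adjusted p = 0.00139), or 8.79% higher. Trp53 overlaps in part with the antisense gene Wrap53, and whether the counting used the strand is not given in the sources used here, so reads of this pair cannot be fully separated. Mdm2 was at 131, 120 and 122 CPM without transfection and ranged from 126.5 to 150.9 CPM (median 137.7) in transfected libraries, so the groups overlapped at their edges, with 15 of 18 transfected libraries above all 3 controls. Its log2 fold change was 0.15 ± 0.03 (edgeR adjusted p = 0.000216). Mdm4 was not called, at 0.03 with a 95% confidence interval of -0.02 to 0.09.

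Cdkn1a, the arrest gene most often used to read p53, went the other way. It was at 45.4, 45.5 and 44.1 CPM in untransfected cells and ranged from 36.5 to 44.9 CPM (median 39.9) after transfection, and 16 of 18 transfected libraries were below all 3 controls. The log2 fold change was -0.16 ± 0.04 (edgeR adjusted p = 0.00367), which is 10.6% lower. Btg2, an antiproliferative gene that p53 and growth signals induce, was at 22.8, 18.9 and 18.7 CPM without transfection and ranged from 11.5 to 17.7 CPM (median 14.5) in transfected libraries, all of them below the controls. It showed the largest fall among the members at -0.47 ± 0.07 (edgeR adjusted p = 1.23e-05). Other arrest genes were not called, including Ccng1 at 0.06 (95% confidence interval -0.02 to 0.15), Gadd45a at -0.07 (-0.26 to 0.12) and Plk3 at 0.07 (-0.06 to 0.20).

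Among cell death genes, Aen was at 51.5, 48.0 and 52.2 CPM in untransfected cells and ranged from 60.1 to 71.2 CPM (median 64.2) in the 18 transfected libraries, again without overlap. Its log2 fold change of 0.35 ± 0.04 (edgeR adjusted p = 2.27e-08), or 27.8% higher, was the largest rise among the members. Bax was at 0.09 (95% confidence interval 0.0049 to 0.173, edgeR adjusted p = 0.110), Bbc3 at -0.14 (-0.45 to 0.18) and Apaf1, the scaffold of the apoptosome, at -0.07 (-0.15 to 0.02), and none of these was called. Trp53inp1, a stress-induced partner of p53 in cell death and autophagy, was at 8.55, 7.85 and 7.50 CPM in untransfected cells and between 5.31 and 8.97 CPM (median 6.59) in transfected libraries, with a log2 fold change of -0.25 ± 0.09 (edgeR adjusted p = 0.0478). That call held in 9 of 30 alternatives and was lost, for example, without untransfected replicate 1, 2 or 3 (adjusted p = 0.255, 0.116 and 0.0631) and without any 1 of 13 transfected libraries (up to 0.0611). Trp53inp1 averaged 8.0 CPM in untransfected cells. Its NTG means were 7.9, 7.5 and 6.4 CPM for RfxCas13d, HiFi-RfxCas13d and DiCas7-11, and its mATXN2 means 6.4, 6.0 and 6.2 CPM. It was not called in any NTG arm against untransfected cells.

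Among metabolic targets, Tigar, which lowers glycolytic flux, was at 37.0, 37.5 and 36.8 CPM without transfection and ranged from 38.7 to 45.9 CPM (median 40.9) after it. All 18 libraries were above the controls, with a log2 fold change of 0.15 ± 0.04 (edgeR adjusted p = 0.00841). Sesn1, an inhibitor of mTORC1 signalling, was at 28.9, 28.2 and 26.3 CPM without transfection and ranged from 22.4 to 27.0 CPM (median 25.1) after it, at -0.16 ± 0.05 (edgeR adjusted p = 0.0222). The groups overlapped, and the Sesn1 call was lost without untransfected replicate 1 (adjusted p = 0.165) or 2 (0.105) and in DESeq2 (0.0511). No DNA repair member, among Rrm2b, Xpc, Ddb2, Polk and Ercc5, was called. When the DiCas7-11 NTG libraries were left out, 8 members were again called, of which 7 were the same, with Bcl2l1 in place of Trp53inp1 (adjusted p = 0.0695). These 18 libraries are compared with only 3 untransfected ones, and summed fibroblast markers also differed, at 1.81 to 2.23 CPM without and 0.682 to 1.61 CPM with transfection, with Col1a2 near 0. The endothelial marker Pecam1 was lower as well, at means of 9.3 CPM without and 7.35 CPM with transfection (-0.34, edgeR adjusted p = 0.00978). The part of these markers in the result was not tested.

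**Figure D1:**
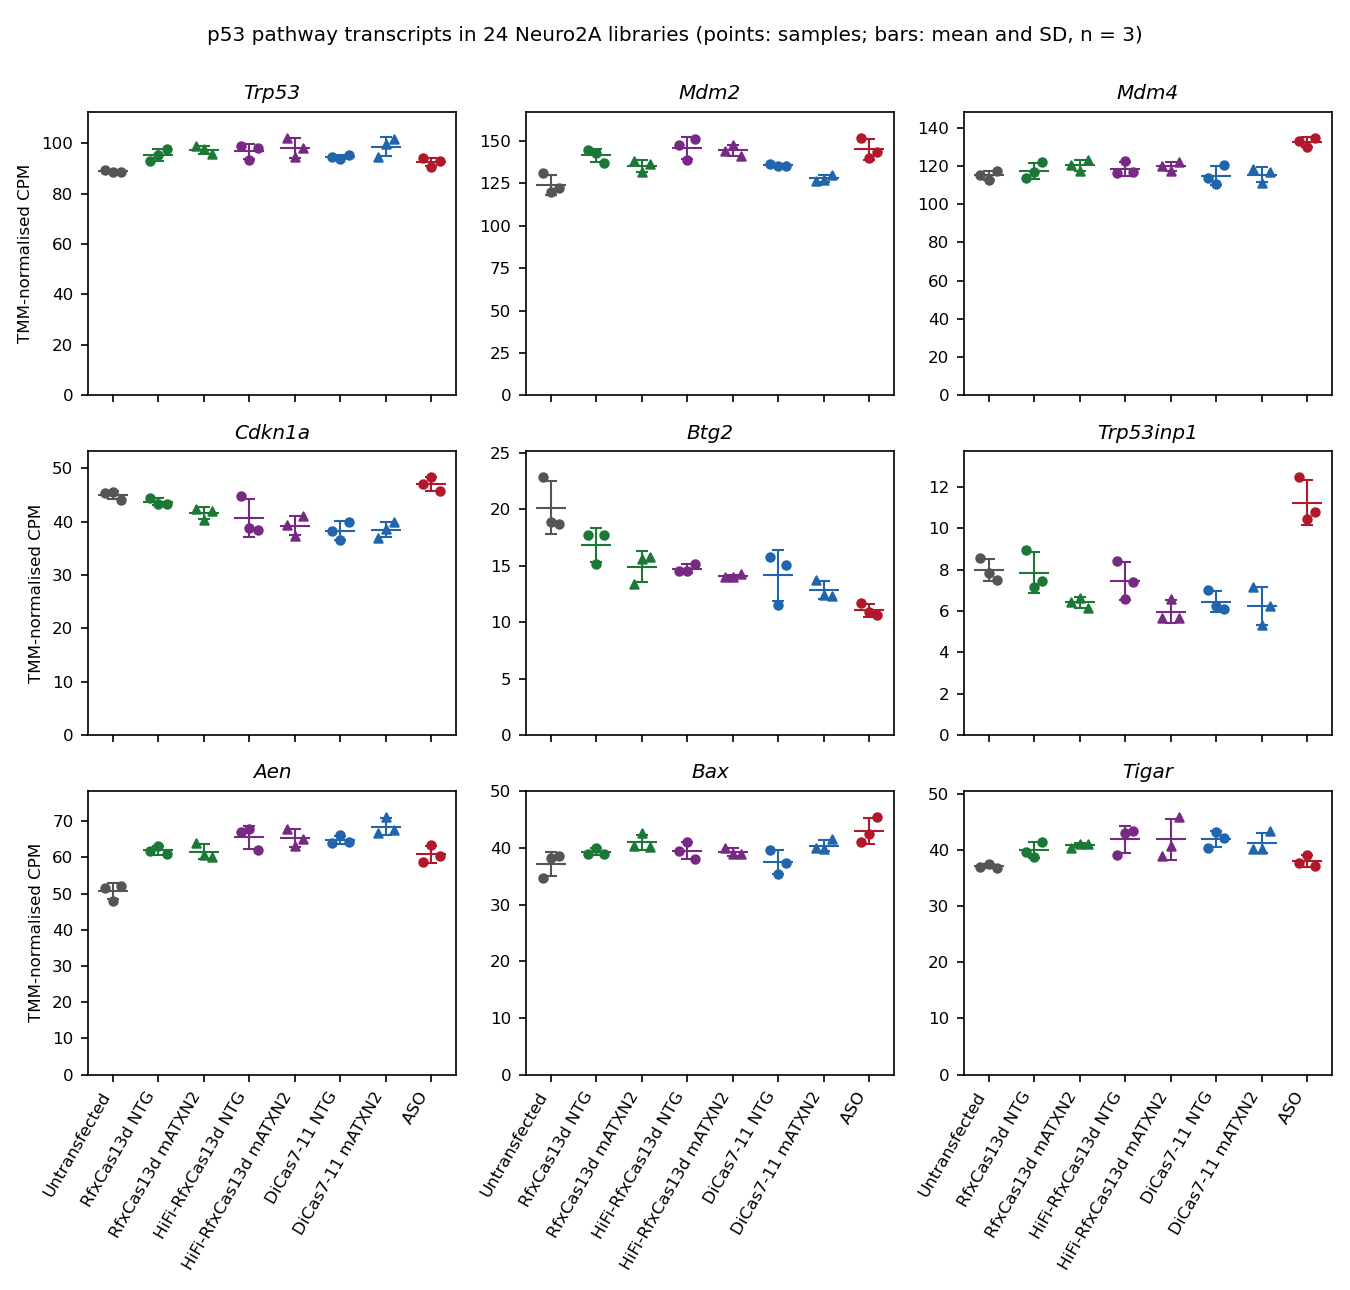
TMM-normalised CPM (y axis, from 0) of 9 members in each of the 24 samples by group (x axis); points are samples, triangles mark mATXN2 groups, and bars give the mean and SD (n = 3). Aen is at 48.0 to 52.2 CPM in untransfected cells and at 60.1 to 71.2 CPM in transfected ones, Btg2 steps down from untransfected to ASO cells, and Trp53inp1 is highest with the ASO.

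The NTG arms, compared with the same untransfected samples, gave the same question without targeting. RfxCas13d NTG called 2 of 28 members (11.3% of all genes were called), HiFi-RfxCas13d NTG 7 (20.9% of all genes) and DiCas7-11 NTG 5 (21.9% of all genes). In the same order, 8, 7 and 10 members did not overlap the controls, beside 28.6%, 35.6% and 31.9% of all genes. These comparisons share their controls, so their values are given side by side and were not tested against each other here. Aen was at 61.8, 63.2 and 60.8 CPM in RfxCas13d NTG, at 66.9, 67.8 and 61.9 CPM in HiFi-RfxCas13d NTG, and at 64.0, 66.1 and 64.3 CPM in DiCas7-11 NTG. All 9 were above the untransfected samples, and log2 fold changes were 0.29, 0.38 and 0.36 (edgeR adjusted p = 6.95e-05, 1.12e-06 and 2.02e-06). Mdm2 was at 144, 143 and 137 CPM, at 148, 138 and 151 CPM, and at 137, 135 and 135 CPM in the same order, at 0.19, 0.23 and 0.13 (edgeR adjusted p = 0.00129, 5.62e-05 and 0.0156). Thus Aen and Mdm2 were called in each of the 3 NTG arms, although the Mdm2 call with DiCas7-11 was lost without untransfected replicate 2 (0.105) or 3 (0.0525). It was also lost in a fit of only the samples compared (0.0562).

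Among the members that fell after transfection, Btg2 was at 17.7, 15.1 and 17.7 CPM in RfxCas13d NTG, where it was not called (-0.26, edgeR adjusted p = 0.0730), at 14.5, 14.5 and 15.2 CPM in HiFi-RfxCas13d NTG (-0.45, 0.00101), and at 15.8, 11.5 and 15.1 CPM in DiCas7-11 NTG (-0.52, 0.000273). Cdkn1a was at 44.4, 43.2 and 43.4 CPM, at 44.9, 38.7 and 38.4 CPM, and at 38.3, 36.5 and 40.0 CPM in the same order. Its log2 fold changes were -0.04 (edgeR adjusted p = 0.664), -0.15 (0.0470) and -0.24 (0.00225), and only the DiCas7-11 samples lay wholly below the controls. The Cdkn1a call in HiFi-RfxCas13d NTG held in 4 of 14 alternatives and was lost without each of 5 libraries, HiFi-RfxCas13d NTG replicate 2 (0.205) or 3 (0.219) and untransfected replicate 1 (0.123), 2 (0.123) or 3 (0.0606).

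Trp53 rose in HiFi-RfxCas13d NTG, with samples at 98.8, 93.2 and 98.2 CPM (0.12, edgeR adjusted p = 0.0153), a call lost without replicate 1 (0.0650) or 3 (0.0591) of that group. It was not called in RfxCas13d NTG at 92.8, 95.5 and 97.7 CPM (0.10, edgeR adjusted p = 0.0654) or in DiCas7-11 NTG at 94.5, 93.7 and 95.5 CPM (0.09, 0.0802), and in all 3 arms its samples were above the controls. Tigar was not called in RfxCas13d NTG (0.11, edgeR adjusted p = 0.239) and was called in HiFi-RfxCas13d NTG (0.18, edgeR adjusted p = 0.0241) and in DiCas7-11 NTG (0.18, 0.0225). The first of these Tigar calls was lost without each of 5 libraries (adjusted p 0.0520 to 0.102: untransfected replicates 1, 2 and 3 and HiFi-RfxCas13d NTG replicates 2 and 3), and the second without each of 4 (0.0538 to 0.102: untransfected replicates 1 and 3 and DiCas7-11 NTG replicates 2 and 3). Sesn1 was at -0.14 in RfxCas13d NTG (edgeR adjusted p = 0.219) and at -0.15 in DiCas7-11 NTG (0.113), neither called, and was called in HiFi-RfxCas13d NTG (-0.21, 0.0288). That call was lost in DESeq2 (0.0599), in a fit of only the samples compared (0.0515) and without each of 4 libraries (0.0841 to 0.164: untransfected replicates 1 and 2 and HiFi-RfxCas13d NTG replicates 1 and 2).

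The ASO moved a partly different group of members: Mdm2, Mdm4, Aen, Bax, Trp53inp1 and Ercc5 rose, and Btg2 fell. That is 7 of 28 members (25.0%) compared with 42.7% of all genes, with a median log2 fold change of 0.04 over members and 0.00 over all genes. How the ASO was delivered is not given in the sources used here, and delivery and the loss of Atxn2 cannot be told apart. The ASO libraries also had the strongest dependence of counts on transcript length, with a fitted range of 0.614 to 0.748 on the log2 scale compared with 0.0255 to 0.408 in the other 21 libraries, and all 7 calls held when it was corrected.

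Btg2 was at 11.7, 10.8 and 10.6 CPM with the ASO, below all 3 untransfected samples, for a log2 fold change of -0.87 ± 0.10 (edgeR adjusted p = 1.85e-08), or 45.2% lower. Mdm2 was at 152, 140 and 144 CPM, above the controls, at 0.22 ± 0.04 (edgeR adjusted p = 1.19e-05). Mdm4, the second inhibitor of p53, was at 115, 113 and 117 CPM in untransfected cells and at 133, 130 and 135 CPM with the ASO, at 0.21 ± 0.03 (edgeR adjusted p = 1.76e-05). Both inhibitors were therefore higher, without overlap between groups. Lack of overlap was common in this comparison, at 9 of 28 members and 51.8% of all genes tested.

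Of the cell death genes, Trp53inp1 was at 12.5, 10.5 and 10.8 CPM with the ASO, above the controls, at 0.50 ± 0.11 (edgeR adjusted p = 0.000564), and Aen was at 58.7, 63.4 and 60.5 CPM, at 0.27 ± 0.05 (1.58e-05). Bax was at 34.8, 38.2 and 38.5 CPM in untransfected cells and at 41.0, 42.5 and 45.5 CPM with the ASO, at 0.21 ± 0.05 (edgeR adjusted p = 0.00109). The ASO samples of all 3 genes lay above the untransfected ones. Ercc5, a nuclease of nucleotide excision repair, was at 42.3, 44.8 and 39.9 CPM without and at 42.9, 50.1 and 49.9 CPM with the ASO, and its call (0.16, edgeR adjusted p = 0.0243) was lost without untransfected replicate 1 (0.0587) or 3 (0.114) or ASO replicate 2 (0.122) or 3 (0.114). A fit of only the samples compared lost it too (0.0522).

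Cdkn1a was not called with the ASO, at 47.0, 48.3 and 45.7 CPM and a log2 fold change of 0.06 (95% confidence interval -0.04 to 0.17, edgeR adjusted p = 0.338), although all 3 samples were above the controls. Trp53 was at 93.9, 90.7 and 93.0 CPM (0.06, -0.01 to 0.13, edgeR adjusted p = 0.192), and Bbc3 at -0.01 (-0.41 to 0.38). Ccng1 and Zmat3, both direct targets, were at 0.02 (-0.09 to 0.13) and 0.05 (-0.05 to 0.14). Summed leukocyte markers were at 1.05 to 2.36 CPM with the ASO and 0.0641 to 0.382 CPM in untransfected cells, the rise being in Cd68 while the defining marker Ptprc was near 0 and Adgre1 was at 0, and its part in the result was not tested.

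**Figure D2:**
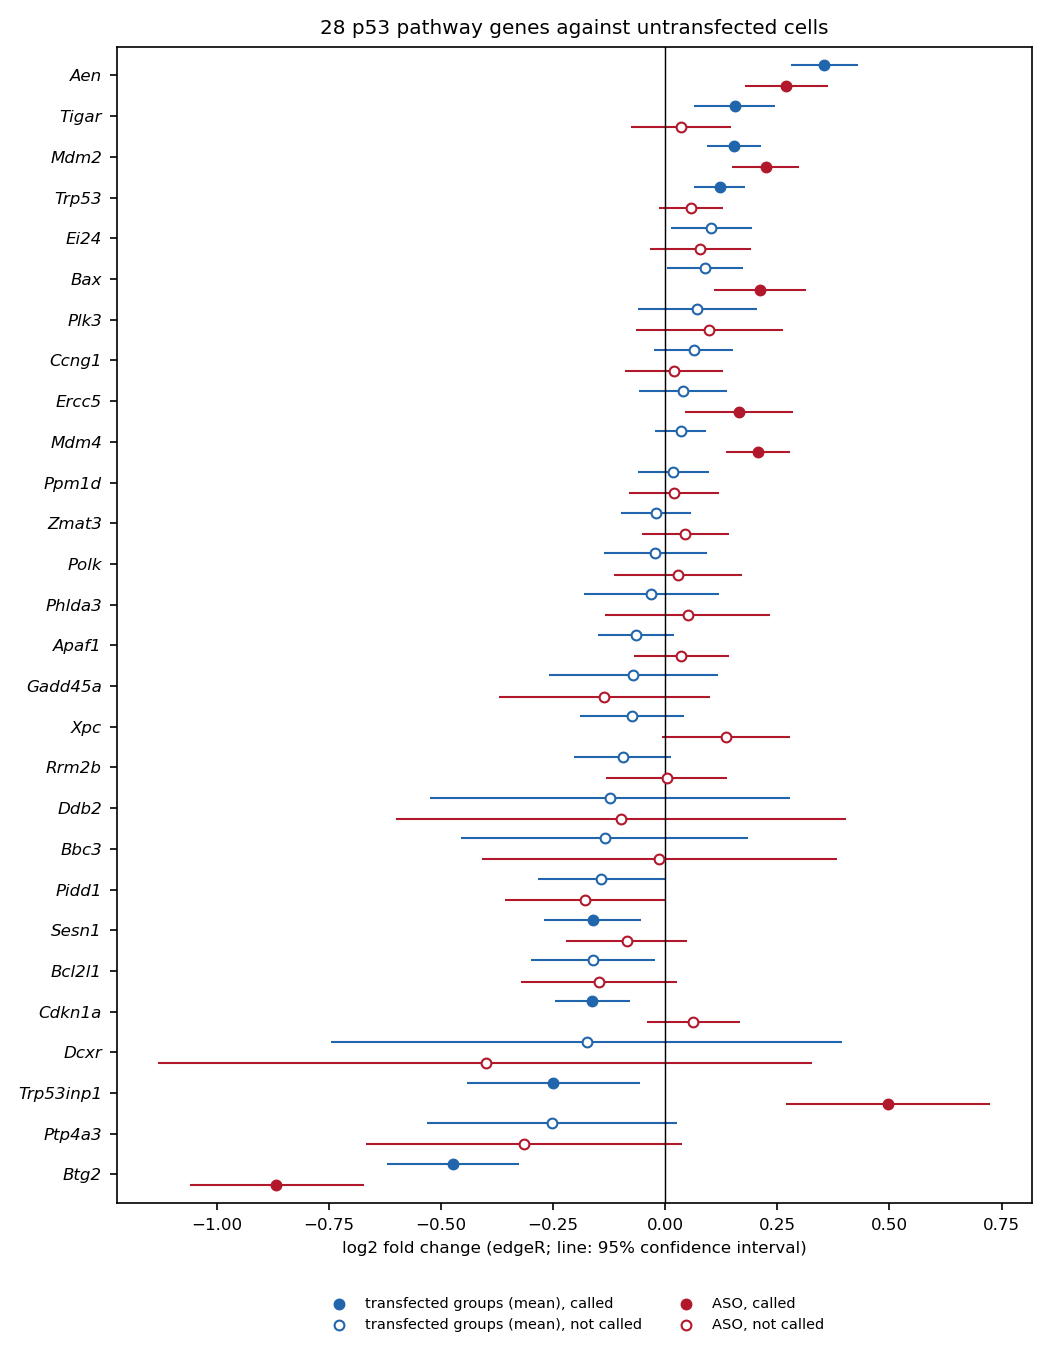
Log2 fold change (x axis) of the 28 members tested (y axis) against untransfected cells, for the mean of the 6 transfected groups (blue) and for the ASO (red); filled points passed an edgeR adjusted p of 0.05 and lines are 95% confidence intervals. Aen and Mdm2 are higher in both, Btg2 is lower in both, and Trp53inp1 lies at -0.25 after transfection and at 0.50 with the ASO.

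Since both contrasts used the same 3 untransfected samples, the ASO was also set against the mean of the 6 transfected groups directly, a comparison chosen after the data had been seen. It called 12 of 28 members (42.9%) compared with 41.7% of all genes, 8 higher and 4 lower with the ASO, and 11 without the DiCas7-11 NTG libraries, where Mdm2 was lost (adjusted p = 0.0525). Trp53inp1 was higher in all 3 ASO samples than in any of the 18 transfected libraries (0.75 ± 0.08, edgeR adjusted p = 9.00e-09), and so were Cdkn1a (0.23 ± 0.04, 1.39e-05) and Mdm4 (0.17 ± 0.03, 2.49e-06). These were the 3 members without overlap, beside 17.5% of all genes. Btg2 was lower with the ASO (-0.39 ± 0.07, edgeR adjusted p = 8.93e-05), with 2 of 3 samples below every transfected library. Xpc, which recognizes DNA lesions, was at 24.1, 28.3 and 28.2 CPM with the ASO and between 19.8 and 25.3 CPM in transfected libraries (0.21 ± 0.05, edgeR adjusted p = 0.00126). Among the other 7 calls, which were between -0.12 and 0.13, each was lost without at least 1 library: Bax without ASO replicate 3 (0.141), Ercc5 without ASO replicate 2 (0.189) or 3 (0.174), Tigar without ASO replicate 1 (0.0698) or 3 (0.0926), Mdm2 without ASO replicate 1 (0.381) or 3 (0.0651), Apaf1 without ASO replicate 1 (0.149) or 2 (0.143), Aen without 3 libraries (0.0531 to 0.255, ASO replicates 1 and 3 and HiFi-RfxCas13d NTG replicate 1) and Trp53 without 11 libraries (0.0517 to 0.221). With the length correction, Apaf1 (0.0742) and Trp53 (0.0848) were also lost. Aen, Apaf1 and Trp53 were lost in DESeq2 (adjusted p = 0.0748, 0.0800 and 0.0959), and Mdm2, Apaf1 and Trp53 in limma-trend (0.0535, 0.0511 and 0.0550).

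The mATXN2 crRNA was then compared with NTG within each effector, where both arms had been transfected, with the doubt about the control plasmid given above. Atxn2 itself was at 114 against 122 CPM with RfxCas13d, 101 against 119 CPM with HiFi-RfxCas13d and 103 against 118 CPM with DiCas7-11. These comparisons thus read the members at a small lowering of the target RNA. No member was called for RfxCas13d, for HiFi-RfxCas13d or for DiCas7-11 in edgeR's quasi-likelihood test, nor in DESeq2 or limma-trend, whereas 1.39%, 0.295% and 0.942% of all genes were called. At an unadjusted p under 0.05 there were 3, 1 and 5 of the 28 members, beside 13.8%, 7.45% and 14% of all genes. The median 95% confidence interval of a member extended 0.14 to either side on the log2 scale in each effector, from 0.07 for Trp53 to over 0.7 for the scarce Dcxr. The whole interval lay within 0.5 of 0 for 23, 23 and 25 of the 28 members.

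Trp53 moved by 0.03 (95% confidence interval -0.04 to 0.10) with RfxCas13d, 0.02 (-0.05 to 0.09) with HiFi-RfxCas13d and 0.06 (-0.01 to 0.13) with DiCas7-11. Mdm2 moved by -0.06 (-0.14 to 0.01), -0.01 (-0.09 to 0.06) and -0.09 (-0.16 to -0.01), with mATXN2 samples at 138, 131 and 136 CPM, at 144, 148 and 141 CPM, and at 126, 127 and 130 CPM. Cdkn1a moved by -0.07 (-0.18 to 0.04), -0.05 (-0.16 to 0.06) and 0.01 (-0.11 to 0.12), with mATXN2 samples at 42.3, 40.3 and 42.0 CPM, at 39.4, 37.3 and 41.0 CPM, and at 37.0, 38.6 and 39.8 CPM. None of these 9 differences was called.

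The members with the smallest unadjusted p were Xpc (-0.18, edgeR unadjusted p = 0.0268, adjusted p = 0.278) and Trp53inp1 (-0.29, 0.0281 and 0.284) for RfxCas13d. For HiFi-RfxCas13d they were Trp53inp1 (-0.31, edgeR unadjusted p = 0.0167, adjusted p = 0.512) and Ptp4a3 (0.30, 0.105 and 0.768). For DiCas7-11 they were Pidd1, a scaffold that activates caspase-2 (0.31, edgeR unadjusted p = 0.00167, adjusted p = 0.0887), and Ppm1d, a phosphatase that turns off p53 signalling (0.14, 0.00754 and 0.166). Pidd1 was at 11.8, 13 and 11.3 CPM with NTG and at 14.8, 15.0 and 15.1 CPM with mATXN2, without overlap. In this comparison 6 members did not overlap, beside 14.5% of all genes. These NTG samples are the libraries with the wide replicate spread, and the DiCas7-11 comparison cannot be made without them. Without DiCas7-11 NTG replicate 3, Zmat3 was called (1 of 28 members).

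**Figure D3:**
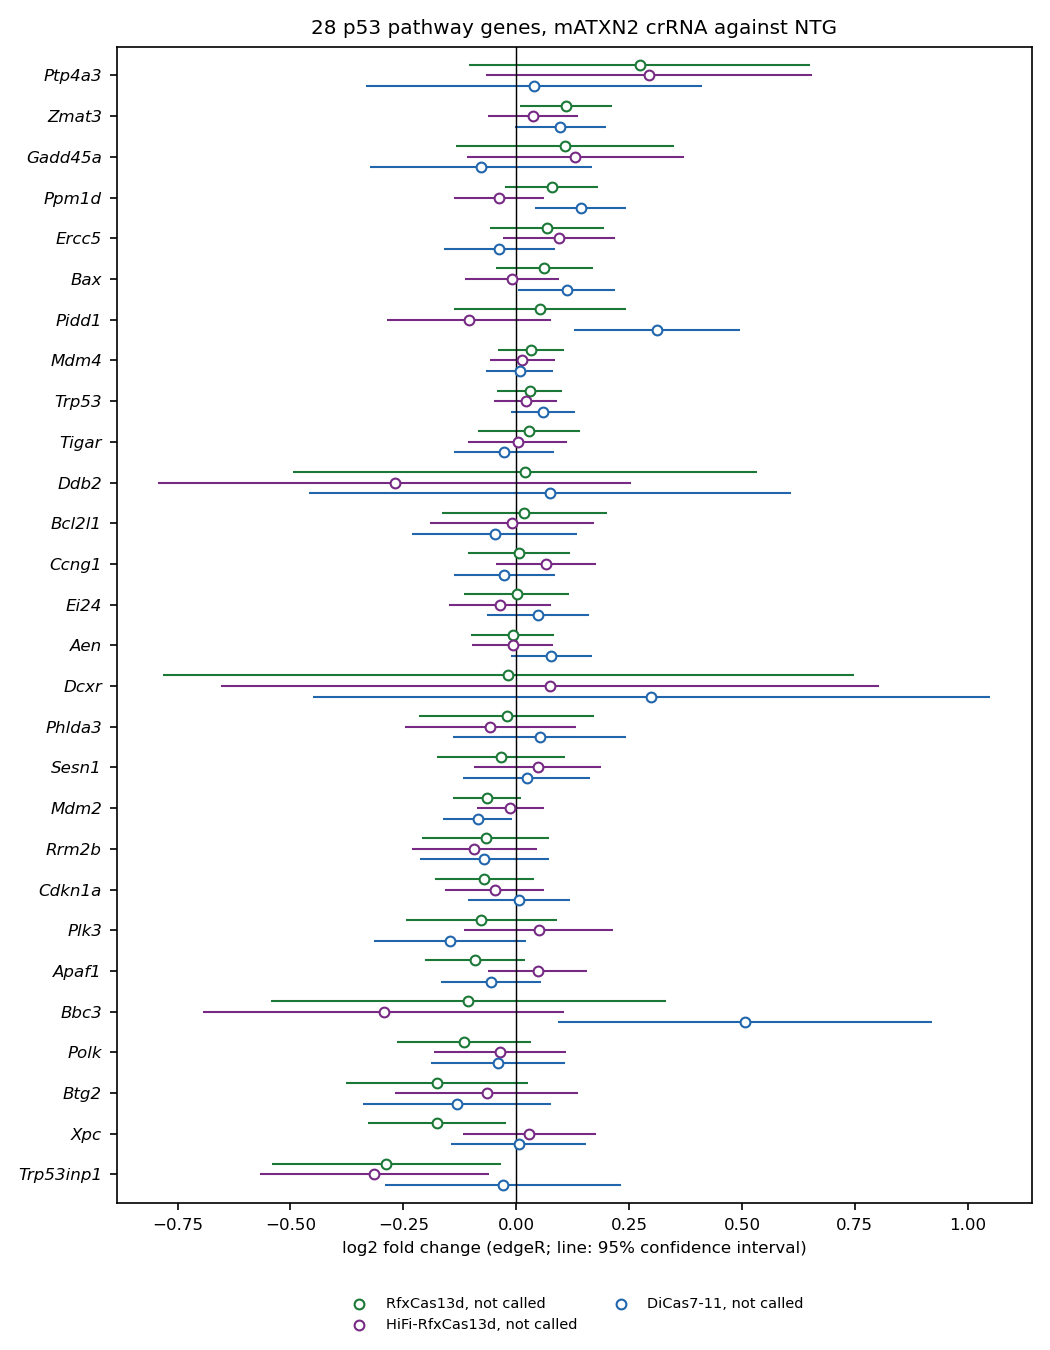
Log2 fold change (x axis) of mATXN2 against NTG for the 28 members tested (y axis) in RfxCas13d (green), HiFi-RfxCas13d (purple) and DiCas7-11 (blue), with 95% confidence intervals as lines. All points are open, since no member passed an edgeR adjusted p of 0.05 in any effector.

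Whether the effectors differed in that response was tested by the difference of the differences. No gene of the 13901, and thus no member (0% and 0%), was called by edgeR in any of the 3 pairs of effectors, and no member by DESeq2 or limma-trend. By unadjusted p under 0.05, 0, 1 and 3 members passed for HiFi-RfxCas13d against RfxCas13d, DiCas7-11 against RfxCas13d and DiCas7-11 against HiFi-RfxCas13d, beside 6.15%, 7.8% and 7.4% of all genes. In the first pair the smallest p were those of Xpc (0.20, edgeR unadjusted p = 0.0599) and Apaf1 (0.14, 0.0787), and in the second those of Bbc3 (0.61, 0.0465) and Pidd1 (0.26, 0.0543). The 3 members of the last pair were Pidd1 (0.42, edgeR unadjusted p = 0.00266), Bbc3 (0.80, 0.00814) and Ppm1d (0.18, 0.0143). Bbc3 lies at 2.11 to 4.63 CPM in these 18 libraries and its intervals are wide, 0.225 to 1.38 in the last case.

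The effectors themselves were compared over both crRNA arms, with 6 libraries each. HiFi-RfxCas13d against RfxCas13d called 0 of 28 members in edgeR, as in DESeq2 and limma-trend, compared with 3.33% of all genes, with 5 of 28 members at an unadjusted p under 0.05 in edgeR, beside 16.3% of all genes. The smallest were Aen (0.08, edgeR unadjusted p = 0.0125, adjusted p = 0.154) and Mdm2 (0.07, 0.0140 and 0.160). Without HiFi-RfxCas13d NTG replicate 1, 1 member, Cdkn1a, was called.

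DiCas7-11 against RfxCas13d called 3 of 28 members (10.7%) compared with 11.4% of all genes. The libraries of 2 members did not overlap, beside 3.65% of all genes. Cdkn1a was lower with DiCas7-11, at 36.5 to 40.0 CPM compared with 40.3 to 44.4 CPM, without overlap over 6 against 6 libraries (-0.15 ± 0.04, edgeR adjusted p = 0.00872). Aen was higher, at 64.0 to 71.2 CPM compared with 60.1 to 63.8 CPM, again without overlap (0.11 ± 0.03, edgeR adjusted p = 0.0210), and Btg2 was lower (-0.24 ± 0.07, 0.0258), with overlap between the effectors. Aen was lost without each of 5 libraries (0.0504 to 0.0640: RfxCas13d NTG replicate 3, RfxCas13d mATXN2 replicates 2 and 3, DiCas7-11 NTG replicate 2 and DiCas7-11 mATXN2 replicate 2), and Btg2 without the same 5 and without RfxCas13d NTG replicate 1 or DiCas7-11 mATXN2 replicate 3 (0.0565 to 0.104). Btg2 was also lost in a fit of only the samples compared (0.058). In the mATXN2 arm alone, without the DiCas7-11 NTG libraries, 1 member was called, Aen (0.16, edgeR adjusted p = 0.0320), whereas Cdkn1a was at -0.11 (0.243) and Btg2 at -0.21 (0.159).

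DiCas7-11 against HiFi-RfxCas13d called 1 of 28 members, Mdm2, compared with 7.05% of all genes. It was also the 1 member without overlap, beside 2.72% of all genes. Mdm2 was at 126.5 to 136.6 CPM in the 6 DiCas7-11 libraries and at 138.5 to 150.9 CPM in the 6 HiFi-RfxCas13d libraries, without overlap (-0.14 ± 0.03, edgeR adjusted p = 0.000923). The call held in all 21 alternatives, including the mATXN2 arm alone (-0.17, 0.00393).

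**Figure D4:**
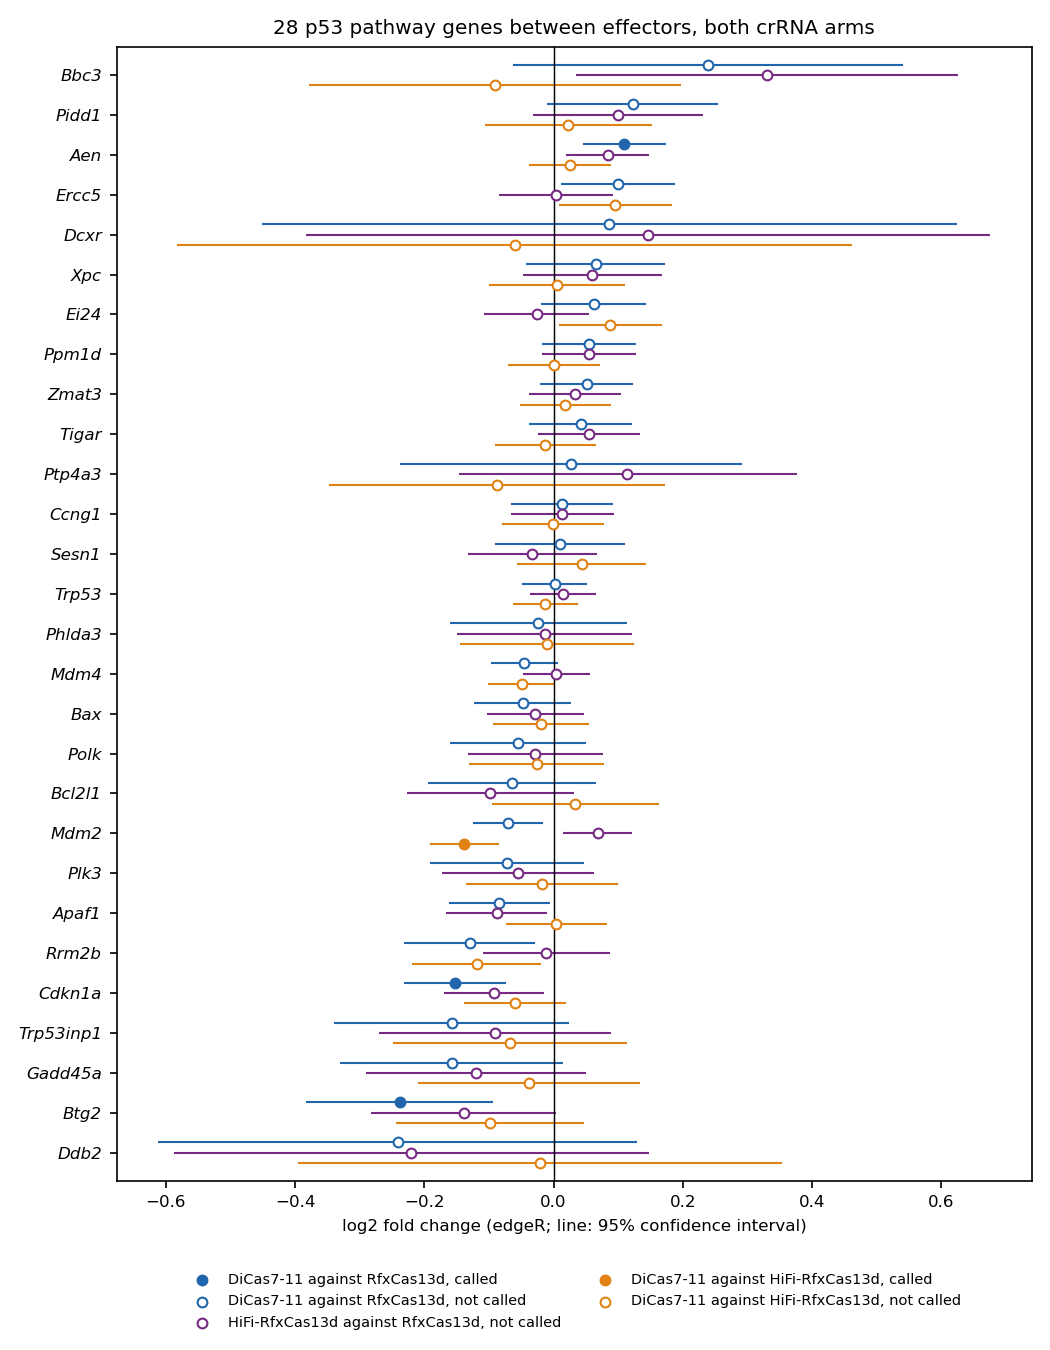
Log2 fold change (x axis) of the 28 members tested (y axis) between effectors over both crRNA arms, for DiCas7-11 against RfxCas13d (blue), HiFi-RfxCas13d against RfxCas13d (purple) and DiCas7-11 against HiFi-RfxCas13d (orange); filled points passed an edgeR adjusted p of 0.05 and lines are 95% confidence intervals. Filled points are Cdkn1a, Btg2 and Aen in blue and Mdm2 in orange.

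Across all comparisons, 13 of the 28 members (46.4%) were called at least once, compared with 62.9% of all genes tested, and 15 never: Bbc3, Bcl2l1, Ccng1, Dcxr, Ddb2, Ei24, Gadd45a, Phlda3, Pidd1, Plk3, Polk, Ppm1d, Ptp4a3, Rrm2b and Zmat3. The highest group mean was 1.88 times the lowest for Trp53inp1, 1.82 times for Btg2 and 1.46 times for Bbc3, whereas it was 1.07 times for Ccng1, 1.08 times for Phlda3 and 1.11 times for Trp53. The highest mean of Mdm2 (145.8 CPM, HiFi-RfxCas13d NTG) and that of the ASO group (145.1 CPM) differed by less than their SDs of 6.5 and 6.3.

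Other genes of the pathway, taken from lists chosen with earlier results known, also moved in both directions. Of 20 kinases and modifiers upstream of p53, 10 (50%) were called after transfection, 8 higher and 2 lower, beside 27.4% of all genes, and 14 (70%) with the ASO, 10 higher and 4 lower, beside 42.7% of all genes. Atm, the kinase activated by double-strand breaks, was higher after transfection (0.34 ± 0.03, edgeR adjusted p = 4.85e-09) and with the ASO (0.24 ± 0.04, 1.31e-05), whereas Atr, its counterpart at stalled forks, was lower in both (-0.08 ± 0.03, 0.0468, and -0.24 ± 0.04, 4.07e-06). Sirt1, a deacetylase that acts on p53, was higher in both (0.39 ± 0.04, edgeR adjusted p = 3.84e-08, and 0.68 ± 0.05, 7.75e-12). Huwe1, a large ubiquitin ligase, was the 1 gene of this list called for mATXN2 against NTG in each effector (0.27, 0.30 and 0.20, edgeR adjusted p = 0.00238, 0.00164 and 0.0361). The fitted dependence on transcript length reached 0.408 on the log2 scale in NTG libraries and 0.235 in mATXN2 libraries. The part of transcript length in the calls of this list, here and with the ASO, was not tested.

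Of 33 tested among 40 further p53 targets, 9 were called after transfection, 5 higher and 4 lower (27.3%, beside 27.4% of all genes), and 16 with the ASO, 7 higher and 9 lower (48.5%, beside 42.7%). Trp53i11 fell in both (-0.45 ± 0.03, edgeR adjusted p = 9.44e-12, and -0.62 ± 0.04, 1.14e-12), and Ddit4, an mTORC1 inhibitor also induced by low oxygen, fell in both (-0.28 ± 0.05, 2.70e-05, and -0.61 ± 0.06, 1.78e-09). Fbxw7, a ubiquitin ligase subunit, was higher in both (0.35 ± 0.04, edgeR adjusted p = 2.88e-07, and 0.25 ± 0.05, 0.000210). Triap1 was the only gene of this list called for mATXN2 against NTG, with RfxCas13d (0.32 ± 0.08, edgeR adjusted p = 0.0269). Of 16 cell cycle genes that p21 lowers through the DREAM complex, 6 (37.5%, beside 27.4% of all genes) were called after transfection, 5 higher and 1 lower, with Ccnb1 at 0.16 ± 0.02 (edgeR adjusted p = 8.48e-07). With the ASO, 11 (68.8%, beside 42.7%) were called, 3 higher and 8 lower, with Cdk1 at -0.26 ± 0.03 (3.74e-09) and Top2a at -0.36 ± 0.03 (2.15e-10). None of the 16 was called for mATXN2 against NTG in edgeR in any effector.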

How the data were processed

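Expression was measured by RNA-seq in 24 Neuro2A samples, 3 in each of 8 groups, from libraries made with a stranded mRNA kit and read from one end. The authors quantified reads with Salmon 1.5.2 against a GRCm39 transcriptome, correcting for sequence and GC bias, and deposited estimated counts per gene scaled by average transcript length (tximport, lengthScaledTPM), with R 4.2.2 named in the submitters' processing notes. The deposited estimated counts need not be whole, and they were rounded to whole numbers here.

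The fit used genes reaching 0.5 CPM in 3 or more samples, library sizes were scaled by TMM, and 1 model of all 8 groups was fitted with edgeR 4.0.16 (quasi-likelihood test, R 4.3.3). P-values were adjusted by Benjamini-Hochberg over all 13901 genes of each comparison, and genes with an adjusted p under 0.05 were called. Intervals are at 95%, and the floor of 3 counts covers counting error only. The test was checked on simulated data. Alternatives included DESeq2 1.42.0, limma 3.58.1 (limma-trend), other size factors, no filter, a correction for transcript length (GENCODE M21 lengths, matched for 88.4% of genes tested and for 28 of 28 members, lowess span 0.3) and leaving out each replicate. The comparison of ASO with transfected cells and the fits without DiCas7-11 NTG were added after the data had been seen.

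The members and the other gene lists were chosen with earlier results of these data known. By rule, Trp53, Mdm2, Cdkn1a and the members called in any comparison, up to the 12 with the smallest adjusted p, were given by sample, and where no member was called the 2 with the smallest unadjusted p were named. Called genes of the other lists were named as examples, chosen after their values were seen. The labels do not say that replicate numbers pair samples. Correlations of same-numbered deviations had a median of 0.0789, and 64 of 84 were positive. All 3 were above 0.1 in 1 of 28 pairs of groups, RfxCas13d NTG with RfxCas13d mATXN2 (0.194, 0.145 and 0.273), and with a replicate block that comparison also called 0 members. Some of the neuroblast markers looked at, and their summed level, are not reported here.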

Additional observations from a re-analysis of the deposited data

How the results depend on the processing

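Of 45 changes of named members, 26 were called under every alternative run, 19 lost the call under at least 1, and 0 changed direction. With the length correction and the replicate block together, 4 members were called in RfxCas13d NTG and 8 in DiCas7-11 NTG against untransfected cells. The replicate block alone gave 9 for the transfected mean, 2, 8 and 6 for the NTG arms of RfxCas13d, HiFi-RfxCas13d and DiCas7-11, 7 for the ASO and 0 for each mATXN2 comparison. DiCas7-11 against RfxCas13d had 1 call in the mATXN2 arm alone, without the DiCas7-11 NTG libraries. Leaving out 1 library at a time gave 4 to 5 calls for HiFi-RfxCas13d NTG (4 without untransfected replicate 1 or 2 or HiFi-RfxCas13d NTG replicate 2 or 3) and 3 to 6 for DiCas7-11 NTG against untransfected cells (3 without untransfected replicate 3), 0 to 1 for mATXN2 with DiCas7-11, 0 to 1 for HiFi-RfxCas13d against RfxCas13d, 1 to 4 for DiCas7-11 against RfxCas13d, and 6 to 12 for the ASO against transfected cells (7 without ASO replicate 1 and 6 without ASO replicate 3). The causes were not tested. The shares of all genes called under these same settings are not given here, so the counts show dependence on the processing and cannot be set against a background. With 3 samples a group, members at a few CPM, such as Bbc3 and Dcxr, have wide intervals, and 7 members could not be tested at this depth.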
